A study of Mus musculus with 15 samples.

Results

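The genes described here are 9 genes that mark inhibitory neurons: Gad1, Gad2, Slc32a1, Pvalb, Calb2, Reln, Lhx6, Dlx1 and Ndnf. They were chosen by name, as the rows of the deposited expression tables with these gene symbols, and all 9 were found among the 21878 genes of the tables. All 9 also passed the filter on low values (at least 1 FPKM in at least 3 libraries) that 12728 genes passed. They were measured by RNA-seq of prefrontal forebrain cortex in 15 mouse libraries, 4 from wild-type C57BL6/J mice given water (WT water), 4 from wild-type mice given nicotine (WT nicotine), 4 from conditional double knockout mice given water (DKO water) and 3 from conditional double knockout mice given nicotine (DKO nicotine). Psen2, which encodes a catalytic subunit of gamma-secretase, is a targeted gene. The mice were 8 months old at the start, and nicotine was given at 100 µg/ml in the drinking water for 3 months, a period in which the other groups drank water alone. The labels give neither the cells in which the conditional knockout acts nor the sex of the mice. Nor do they say whether the numbered libraries of a group came from separate mice, so the p-values here reflect only how far these libraries lie apart, which may be technical in part.

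Inhibitory neurons of the cortex release GABA, which the glutamate decarboxylases encoded by Gad1 and Gad2 make and the vesicular transporter encoded by Slc32a1 loads into synaptic vesicles. Dlx1 and Lhx6 encode homeodomain transcription factors of the lineages that give rise to cortical interneurons, with Lhx6 kept in cells born in the medial ganglionic eminence. Pvalb and Calb2 encode calcium-binding proteins of separate interneuron classes, Reln encodes the secreted protein reelin, and Ndnf marks cells of the outermost cortical layer. Gad1, Gad2 and Slc32a1 are not particular to interneurons, since the projection neurons of the striatum also release GABA.

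The start regions of 3 genes are shown because Dlx1 and Gad2 stood higher in every knockout library than in every wild-type library, and Pvalb had the largest of the 9 genotype differences among the mice given water. Each window runs from 250 bases before to 50 bases after a RefSeq transcript start in GRCm38.p6, is written 5′ to 3′ on the gene's strand, and has its CG dinucleotides in capitals. The Dlx1 window is chr2:71529195-71529494 (plus strand), that of Gad2 is chr2:22622077-22622376 (plus strand), and that of Pvalb is chr15:78206351-78206650 (minus strand).
Dlx1: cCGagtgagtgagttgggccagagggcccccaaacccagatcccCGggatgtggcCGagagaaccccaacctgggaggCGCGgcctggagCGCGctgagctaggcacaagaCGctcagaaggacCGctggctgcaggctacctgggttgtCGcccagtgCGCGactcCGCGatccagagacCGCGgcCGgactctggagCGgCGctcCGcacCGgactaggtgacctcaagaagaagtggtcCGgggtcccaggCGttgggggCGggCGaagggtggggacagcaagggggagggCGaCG
Gad2: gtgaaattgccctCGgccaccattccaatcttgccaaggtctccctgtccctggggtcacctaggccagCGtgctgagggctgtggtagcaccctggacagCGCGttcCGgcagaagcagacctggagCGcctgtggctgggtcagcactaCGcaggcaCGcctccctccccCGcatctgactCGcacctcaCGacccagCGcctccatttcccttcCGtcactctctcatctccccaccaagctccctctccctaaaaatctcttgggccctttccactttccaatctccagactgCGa
Pvalb: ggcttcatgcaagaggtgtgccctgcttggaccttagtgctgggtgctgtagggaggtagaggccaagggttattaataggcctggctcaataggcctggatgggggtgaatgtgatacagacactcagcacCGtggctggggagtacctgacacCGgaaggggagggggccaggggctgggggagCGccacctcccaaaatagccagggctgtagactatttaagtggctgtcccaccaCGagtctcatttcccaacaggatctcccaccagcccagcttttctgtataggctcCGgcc
The Dlx1 window held 27 CG dinucleotides, that of Gad2 held 14, that of Pvalb held 5 and that of another Pvalb transcript start (not shown) held 25, against a median of 7 over 32851 mouse windows of the same length. RefSeq windows were matched for 7 of the 9 genes (all but Calb2 and Ndnf), and those 7 had 10 windows. The homeodomain core letters TAATTA, searched on both strands, were in none of the 10 windows and in 5.29% of all windows. These are counts of letters and say nothing of what binds there.

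Total reads in genes, recovered from the steps of the FPKM values, ranged from 16334904 to 19469215 per library. FPKM, fragments per kilobase of gene model and per unit of library depth, is a level per length. Levels set beside each other between genes thus rest on the model lengths. As recovered from the values, these were about 1169 bases for Pvalb and 15350 for Ndnf, the shortest and longest of the 9. Psen2 stood between 5.44 and 7.14 FPKM in the 8 WT libraries and between 1.29 and 1.76 in the 7 DKO libraries. Y-linked Ddx3y, Eif2s3y, Kdm5d and Uty were expressed in all WT water and DKO water libraries and in DKO nicotine replicates 1 and 3. They were near 0 in DKO nicotine replicate 2 and in all 4 WT nicotine libraries, so the WT groups differ in Y-linked expression as well as in nicotine. The libraries numbered 3 of both WT groups stood apart in olfactory bulb markers, and 3 of the 4 DKO water libraries in striatal markers. Results that touch these are given with a fit that has the mean log2 level of the striatal markers as a covariate, or without those WT libraries, both chosen after seeing the data.

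Levels of the 9 genes spanned a wide range. In WT water, Gad1 was highest at 85.6 ± 4.59 FPKM (SD, n = 4), followed by Slc32a1 at 39.3 ± 2.58, Pvalb at 38.8 ± 4.98, Gad2 at 20.7 ± 0.283, Calb2 at 13.3 ± 8.95, Reln at 10.1 ± 1.42, Dlx1 at 6.24 ± 0.537, Lhx6 at 5.38 ± 0.189 and Ndnf at 1.30 ± 0.178. The library ranges of 4 neighbouring pairs in this order overlapped, namely Slc32a1 and Pvalb, Gad2 and Calb2, Calb2 and Reln, and Dlx1 and Lhx6. Reads behind a value ranged from 194 to 743 per library for Calb2, which had the lowest count of all, and from 7547 to 10458 for Gad1. The order of Gad1 over Gad2 held in all 15 libraries.

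**Figure D1:**
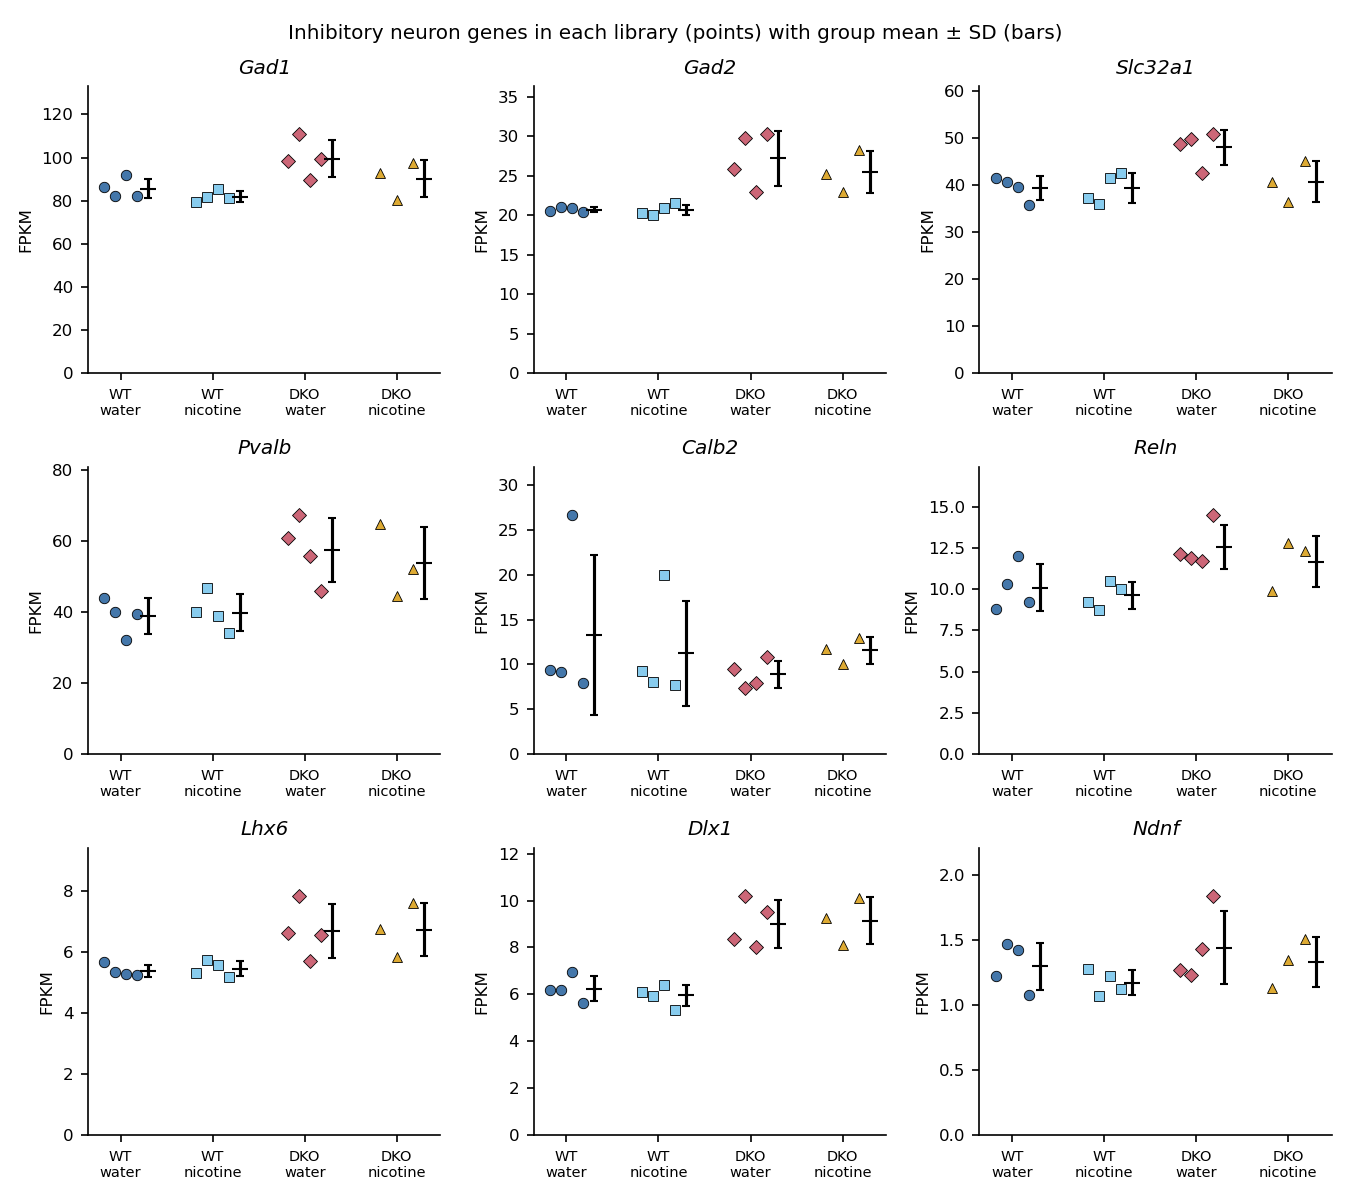
FPKM of each of the 9 genes (vertical axes) in each library (points), by group along the horizontal axes, with the group mean and SD as bars. Gad2 and Dlx1 lie higher in all 7 DKO libraries than in all 8 WT libraries, and Calb2 has a single high library in each WT group (26.7 and 20.0 FPKM).

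The comparison of DKO with WT mice given water asks what the knockout does to these genes without nicotine. Gad1, Gad2, Slc32a1, Pvalb, Reln, Lhx6 and Dlx1 were higher in the knockout cortex, by 0.21 to 0.55 on the log2(FPKM + 1) scale, while Calb2 and Ndnf did not pass the test. A gene is called when its limma p, adjusted by Benjamini-Hochberg over the 12728 genes, is under 0.05, and the scale understates the change of genes with low values. The 7 of 9 genes called higher stand beside 25.5% of all tested genes called higher, and 38.0% called in either direction. The median difference of the 9 genes was 0.28, against 0.05 over all tested genes. In 5 of the 9 (Gad2, Slc32a1, Pvalb, Lhx6 and Dlx1) the libraries of the groups did not overlap with DKO higher, as was so for 24.0% of all tested genes. In bulk tissue a different number of cells of a type and a different amount of RNA per cell cannot be told apart.

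The genes that make and package GABA were higher in DKO water, as were striatal markers (summed level 169 to 241 FPKM in WT water and 248 to 414 in DKO water), and with those as a covariate the calls of Gad1 and Slc32a1 were lost. Gad1 (gene 14415, chromosome 2, 70561303 to 70602014 in GRCm38.p6) encodes the larger of the decarboxylases. Its values were 86.5, 82.0, 91.8 and 82.2 FPKM in the WT water libraries and 98.3, 111, 89.6 and 99.3 in the DKO water libraries. DKO water replicate 3 lay within the WT range and the other 3 lay above it. The difference was 0.21 on the log2 scale (SE 0.06, adjusted p = 0.0128 by limma), with means of 85.6 and 99.5 FPKM. The call was lost without DKO water replicate 2 (adjusted p = 0.0527) and with the striatal covariate (difference 0.07, adjusted p = 0.406).

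Gad2 (gene 14417, chromosome 2, 22621015 to 22693877) encodes the decarboxylase associated with synaptic terminals, and its start window is shown above. It was at 20.5, 21.0, 20.9 and 20.4 FPKM in WT water and at 25.9, 29.8, 22.9 and 30.3 in DKO water. The WT libraries were close together, and the lowest DKO library, replicate 3, was still above all of them. The difference was 0.37 (SE 0.07, adjusted p = 0.000754 by limma), a ratio of means of 1.32, and with the striatal covariate it was 0.20 and still called (adjusted p = 0.0375).

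Slc32a1 (gene 22348, chromosome 2, 158607260 to 158615747) encodes the vesicular GABA transporter. It was at 41.4, 40.6, 39.6 and 35.6 FPKM in WT water and at 48.7, 49.6, 42.5 and 50.8 in DKO water. DKO water replicate 3 stood just above the highest WT water library, and the other 3 DKO libraries well above it. The difference was 0.28 (SE 0.07, adjusted p = 0.00581 by limma), and with the striatal covariate it was 0.09 and the call was lost (adjusted p = 0.274).

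Of the transcription factors, Dlx1 (gene 13390, chromosome 2, 71528113 to 71533981) had the smallest adjusted p of the 9 genes. Its values were 6.20, 6.19, 6.95 and 5.64 FPKM in WT water and 8.35, 10.2, 8.00 and 9.52 in DKO water. The groups were separate, with a ratio of means of 1.45. The log2 difference was 0.47 (SE 0.08, adjusted p = 0.000207 by limma). Lhx6 (gene 16874, chromosome 2, 36081950 to 36105992) was at 5.66, 5.35, 5.27 and 5.25 FPKM in WT water and at 6.61, 7.84, 5.71 and 6.56 in DKO water. The groups touched without overlapping, since DKO water replicate 3 at 5.71 was next to WT water replicate 1 at 5.66. The difference was 0.26 (SE 0.08, adjusted p = 0.0128 by limma), and the call was lost without DKO water replicate 2 (adjusted p = 0.052) and with the striatal covariate (0.14, adjusted p = 0.277).

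Pvalb (gene 19293, chromosome 15, 78191112 to 78206400), the calcium buffer of fast-spiking interneurons, had the largest difference. It was at 43.9, 40.1, 32.0 and 39.4 FPKM in WT water and at 60.7, 67.3, 55.7 and 45.8 in DKO water. The lowest DKO library, replicate 4, stood above the highest WT water library, and DKO water replicate 3 was clearly above the WT water range here. The difference was 0.55 (SE 0.13, adjusted p = 0.0027 by limma), a ratio of means of 1.48.

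Reln (gene 19699, chromosome 5, 21884454 to 22344705) was at 8.78, 10.3, 12 and 9.24 FPKM in WT water and at 12.1, 11.9, 11.7 and 14.5 in DKO water. WT water replicate 3 overlapped the DKO range. The difference was 0.29 (SE 0.09, adjusted p = 0.0204 by limma), and the call was lost without DKO water replicate 4 and without WT water replicate 1 or 4, with adjusted p up to 0.0747. The call of Reln was also lost under median-of-ratios rescaling (adjusted p = 0.0512) and with the striatal covariate (0.20, adjusted p = 0.234). Ndnf (gene 68169, chromosome 6, 65671611 to 65712323), which encodes a secreted neurotrophic factor, ranged from 1.08 to 1.47 FPKM in WT water and from 1.23 to 1.84 in DKO water. These ranges overlapped, with a difference of 0.09 (SE 0.09, adjusted p = 0.448 by limma).

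Calb2 (gene 12308, chromosome 8, 110142526 to 110168212), which encodes calretinin, was the gene with the widest spread. It was at 9.33, 9.11, 26.7 and 7.98 FPKM in WT water and at 9.44, 7.40, 7.92 and 10.8 in DKO water. Apart from WT water replicate 3, the WT water libraries lay between 7.98 and 9.33, inside the DKO water range of 7.40 to 10.8. The difference was -0.37 (SE 0.30, adjusted p = 0.355 by limma) with all libraries, and 0.0014 (SE 0.11, adjusted p = 0.994) without the 2 WT libraries numbered 3.

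**Figure D2:**
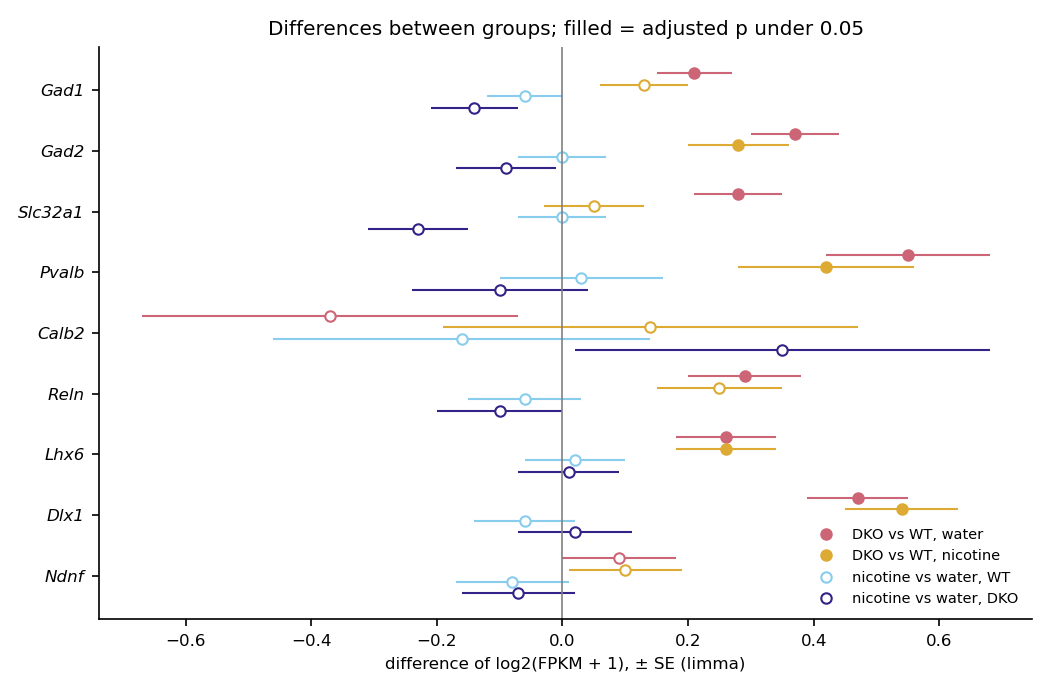
Differences of log2(FPKM + 1) with their limma SE (horizontal axis) for each gene in 4 comparisons of groups; filled points have an adjusted p under 0.05. Filled points occur only for DKO against WT, 7 in water and 4 in nicotine, and the intervals of Calb2 are the widest.

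The same comparison among mice given nicotine asks what the knockout does under the drug. Gad2, Pvalb, Lhx6 and Dlx1 were higher in DKO nicotine than in WT nicotine, by 0.26 to 0.54 on the log2 scale. The 4 of 9 called higher stand beside 24.6% of all tested genes called higher and 35.7% called in either direction. All 9 fitted differences were above 0, with a median of 0.25 against 0.06 over all tested genes. The groups did not overlap for Gad2, Lhx6 and Dlx1, with DKO higher, as for 25.8% of all tested genes. All 4 WT nicotine libraries lacked Y-linked expression and 2 of the 3 DKO nicotine libraries had it, so genotype and Y-linked expression are partly mixed in this comparison, and the part of the latter was not tested.

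Dlx1 was at 6.12, 5.94, 6.39 and 5.35 FPKM in WT nicotine and at 9.24, 8.09 and 10.1 in DKO nicotine. The DKO library without Y-linked expression, replicate 2, was the lowest of the 3 and still above every WT nicotine library. The difference was 0.54 (SE 0.09, adjusted p = 0.000123 by limma), and adjusted p stayed between 9.34e-05 and 0.00141 when each library was left out in turn. Gad2 was at 20.3, 20.0, 20.9 and 21.5 FPKM in WT nicotine and at 25.2, 22.9 and 28.3 in DKO nicotine. Its groups did not overlap, and the difference was 0.28 (SE 0.08, adjusted p = 0.0108 by limma). Without DKO nicotine replicate 3 it was 0.21 and the call was lost (adjusted p = 0.0784).

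Lhx6 was at 5.32, 5.73, 5.58 and 5.19 FPKM in WT nicotine and at 6.76, 5.84 and 7.59 in DKO nicotine. DKO nicotine replicate 2 lay just above the WT range. The difference was 0.26 (SE 0.08, adjusted p = 0.0238 by limma), a call lost without DKO nicotine replicate 1, DKO nicotine replicate 3 or WT nicotine replicate 4 (adjusted p up to 0.147), under median-of-ratios rescaling (adjusted p = 0.0597) and with the replicate number as a block (difference 0.24). Pvalb was at 39.9, 46.6, 38.7 and 34.0 FPKM in WT nicotine and at 64.6, 44.4 and 52.2 in DKO nicotine. Here DKO nicotine replicate 2 fell inside the WT range. The difference was 0.42 (SE 0.14, adjusted p = 0.026 by limma), and the call was lost when any of 4 of the 7 libraries was left out (DKO nicotine replicates 1 and 3, WT nicotine replicates 3 and 4, adjusted p up to 0.155).

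The other 5 genes were not called in nicotine. Gad1 was at 79.2, 81.8, 85.2 and 81.1 FPKM in WT nicotine and at 92.6, 80.5 and 97.3 in DKO nicotine. Its replicate 2 of DKO nicotine was inside the WT range, and the difference was 0.13 (SE 0.07, adjusted p = 0.130 by limma); without that library it was 0.21 (adjusted p = 0.0196). Slc32a1, the vesicular transporter, was at 37.2, 35.9, 41.4 and 42.4 FPKM in WT nicotine and at 40.5, 36.4 and 45.1 in DKO nicotine. These overlapped, with a difference of 0.05 (SE 0.08, adjusted p = 0.662 by limma) whose sign turned under median-of-ratios rescaling. Reln ranged from 8.72 to 10.5 FPKM in WT nicotine and from 9.91 to 12.8 in DKO nicotine, a difference of 0.25 (SE 0.10, adjusted p = 0.0638 by limma). Reln was called with the replicate number as a block (0.27), by voom on the recovered reads (0.28), without DKO nicotine replicate 1 (adjusted p = 0.0168) and without the 2 WT libraries numbered 3 (0.29, adjusted p = 0.0323). Ndnf ranged from 1.07 to 1.28 and from 1.13 to 1.51 FPKM, a difference of 0.10 (SE 0.09). Calb2 was at 9.24, 8.00, 20.0 and 7.65 FPKM in WT nicotine and at 11.7, 10.0 and 13.0 in DKO nicotine. With all libraries the difference was 0.14 (SE 0.33, adjusted p = 0.780 by limma). Every DKO nicotine library was above the 3 WT nicotine libraries other than replicate 3, and without the 2 WT libraries numbered 3 the difference was 0.43 (SE 0.12, adjusted p = 0.0121 by limma).

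Nicotine itself was compared with water within each genotype. In WT, where nicotine and the absence of Y-linked expression cannot be told apart, none of the 9 genes was called by limma or by voom on the recovered reads. By limma 0.173% of all tested genes were called, and none of the 9 had an unadjusted p under 0.05. Differences ranged from -0.16 for Calb2 to 0.03 for Pvalb. Mean Gad2 was 20.7 FPKM in both WT groups, and mean Slc32a1 was 39.3 in water and 39.2 in nicotine, with an SE of 0.07 on either log2 difference. In DKO, none of the 9 was called by limma or voom, where 0.157% of all tested genes were called by limma, and 1 had an unadjusted p under 0.05. That gene was Slc32a1, at 48.7, 49.6, 42.5 and 50.8 FPKM in DKO water and at 40.5, 36.4 and 45.1 in DKO nicotine. DKO nicotine replicate 3 at 45.1 exceeded DKO water replicate 3 at 42.5, so the groups overlapped. The difference was -0.23 (SE 0.08, unadjusted p = 0.00836, adjusted p = 0.217 by limma), and -0.16 without DKO nicotine replicate 2, the library without Y-linked expression (adjusted p = 0.449). For Gad1 it was -0.14 (SE 0.07, adjusted p = 0.361), and for Dlx1 and Lhx6, the 2 transcription factors, 0.02 (SE 0.09) and 0.01 (SE 0.08).

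Whether nicotine acted differently in the genotypes was tested as an interaction. None of the 9 genes was called by limma or voom, where 0.0157% of all tested genes were called by limma, and 1 had an unadjusted p under 0.05. That gene was again Slc32a1, whose genotype difference was 0.23 smaller in nicotine than in water on the log2 scale (interaction -0.23, SE 0.11, unadjusted p = 0.0451, adjusted p = 0.707 by limma). So the genes called in water and not in nicotine (Gad1, Slc32a1 and Reln) were not shown to differ between the drinking conditions. The interaction of Dlx1 was 0.08 (SE 0.12) and that of Pvalb -0.13 (SE 0.19).

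Markers of striatal projection neurons, which are GABAergic and lie beneath the frontal cortex, moved with some of these genes. Of 13 listed striatal markers 12 were tested, and 7 rose in DKO water against WT water (Pdyn, Ppp1r1b, Pde10a, Rgs9, Adora2a, Penk and Gpr6), with a list median of 0.66, while only Pdyn did in the nicotine comparison, with a list median of 0.15. Over all tested genes, 25.5% were called higher in water and 24.6% in nicotine. The summed level of the striatal markers ranged from 169 to 241 FPKM in WT water, 174 to 302 in WT nicotine, 248 to 414 in DKO water and 206 to 293 in DKO nicotine. Within DKO water, replicate 3 had the lowest sum at 248, inside the WT range, and the others had 333, 414 and 402. Adora2a, the adenosine receptor of a class of striatal neurons, was at 6.48 in that replicate, inside the range of the WT libraries (3.23 to 9.34). Pdyn, an opioid peptide precursor on the same list, was not: it was at 16.2 there against a WT maximum of 11.6, and all 7 DKO libraries lay above all 8 WT libraries. In DKO water replicate 3 Gad2 (22.9), Dlx1 (8.00) and Pvalb (55.7) lay above all 8 WT libraries. Slc32a1, at 42.5 against a WT maximum of 42.4, was level with the highest WT library, and Gad1 (89.6) and Lhx6 (5.71) were inside the WT range.

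Across the 15 libraries, with each group's mean removed, the mean log2 level of the striatal markers was correlated with Slc32a1 (Pearson r = 0.88, Spearman rho = 0.86), Gad2 (r = 0.79, rho = 0.88) and Gad1 (r = 0.74, rho = 0.74). Values were permuted within groups, 100000 times, and 10 relations were computed. The adjusted p was 0.0051 to 0.0052 for r and 0.0047 for rho (unadjusted p for r of 0.001, 0.00058 and 0.0021). Without the 2 libraries farthest from the median score, r was 0.86, 0.76 and 0.67. The relation did not pass for Dlx1 (r = 0.56, rho = 0.55, adjusted p = 0.12 and 0.13) or Lhx6 (r = 0.55, rho = 0.46, adjusted p = 0.12 and 0.27). For Pvalb r was -0.08 (rho = -0.12, adjusted p = 0.79 and 0.70). The score includes Pdyn and Penk, the genes that went most closely with Gad2 (r = 0.96) and Slc32a1 (r = 0.91) in the listing below. Whether cortical inhibitory neurons express some of the listed markers was not tested, so the score may not measure striatal tissue alone.

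With the striatal marker score as a covariate, 2072 of 12728 tested genes were called higher in water, against 3252 without it. The difference in water then passed for 3 of the 9 genes. These were Gad2 (0.20, SE 0.07, adjusted p = 0.0375), Pvalb (0.58, SE 0.17, adjusted p = 0.0177) and Dlx1 (0.34, SE 0.09, adjusted p = 0.0124), all by limma. Gad1, Slc32a1, Reln and Lhx6 kept a difference above 0 and did not pass. In the nicotine comparison the same covariate left the calls of Gad2 (0.25), Pvalb (0.42), Lhx6 (0.23) and Dlx1 (0.52) in place. Over all tested genes 3034 were called higher there, against 3133 without the score. A score that itself differs between the groups, or holds markers that cortical inhibitory neurons also express, can take up part of a group difference. For Pvalb in water the difference was 0.55 without the score and 0.58 with it.

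**Figure D3:**
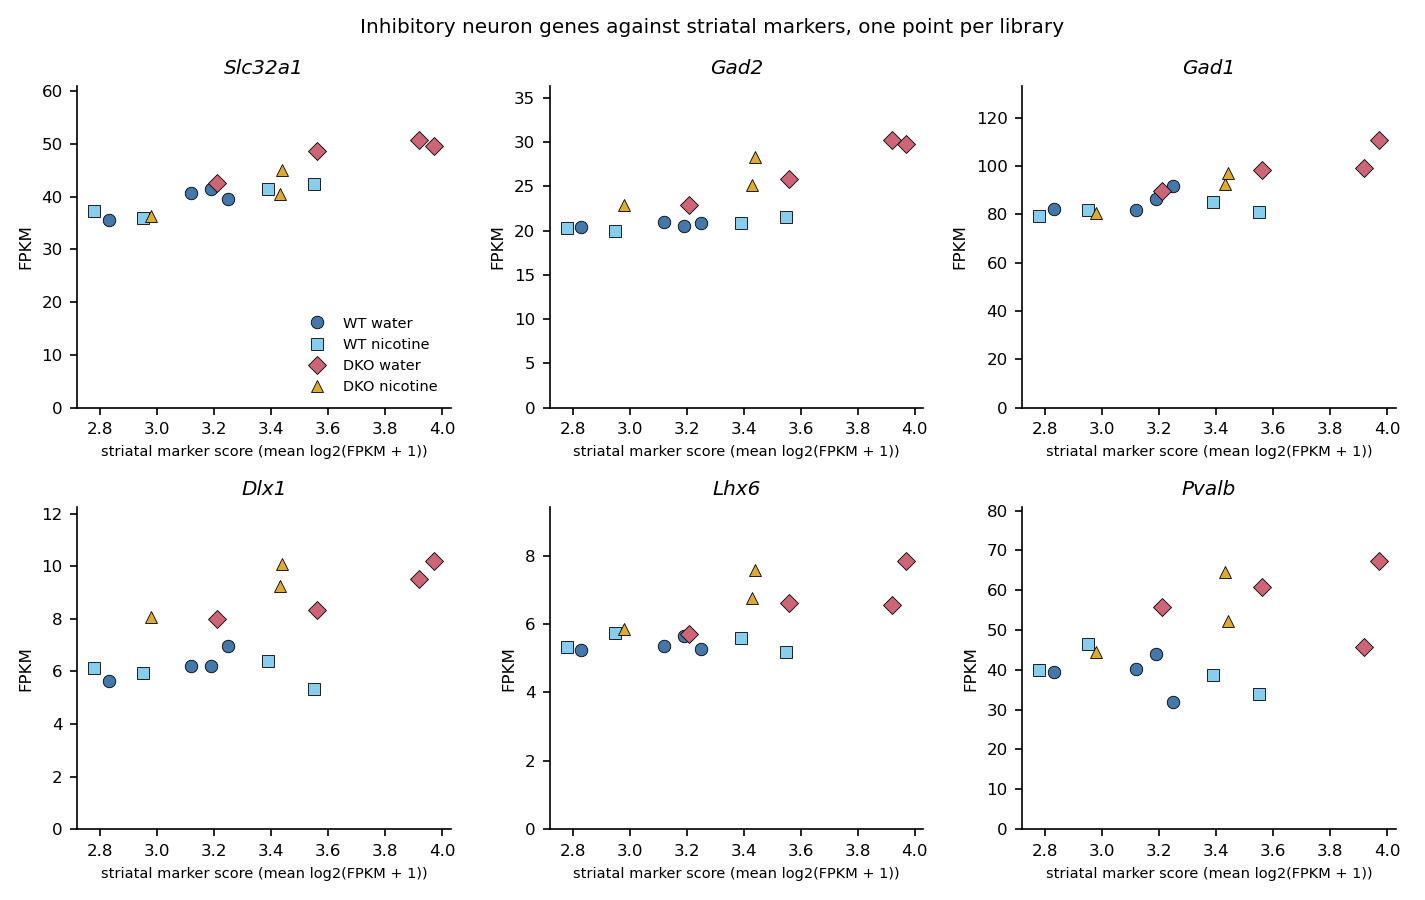
FPKM of 6 genes (vertical axes) against the mean log2(FPKM + 1) of the striatal markers (horizontal axes), with a point per library, coloured by group. Slc32a1 goes with the score in all groups, whereas Dlx1 and Gad2 of DKO libraries lie above WT libraries of a similar score, as with DKO water replicate 3 (Dlx1 8.00, Gad2 22.9 FPKM).

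Calb2 moved with markers of the olfactory bulb, where many neurons make calretinin. The 5 listed markers (Eomes, Th, Doc2g, Cdhr1 and Tbx21) summed to 24.8 FPKM in WT water replicate 3 and 14.7 in WT nicotine replicate 3, and to between 3.13 and 5.30 in the other 13 libraries. None of the markers that passed the filter was called in either genotype comparison. Calb2 was 26.7 and 20.0 FPKM in those same 2 libraries and 7.40 to 13.0 in the others. No correlation is given, since these libraries stand apart from the rest. Gad1 (91.8), Dlx1 (6.95) and Reln (12) also had their highest WT value in WT water replicate 3, though none of the other 8 genes had its highest value of all 15 libraries there. Without those 2 libraries the 7 calls in water held, and in nicotine 6 genes were called in place of 4, with Calb2 and Reln (0.29, adjusted p = 0.0323) added.

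**Figure D4:**
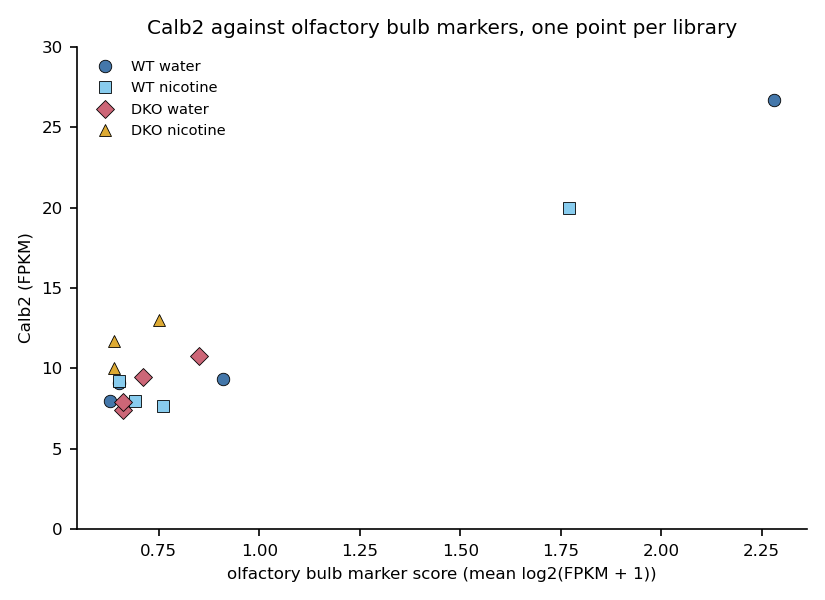
Calb2 FPKM (vertical axis) against the mean log2(FPKM + 1) of the 5 listed olfactory bulb markers (horizontal axis), with a point per library. The 2 WT libraries numbered 3 stand apart at 26.7 and 20.0 FPKM of Calb2, and the other 13 lie between 7.40 and 13.0.

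To describe the make-up of the inhibitory genes within a library, each of the other 6 was set against the geometric mean of Gad1, Gad2 and Slc32a1, as a log2 ratio with no test. Dlx1 was at -2.72 ± 0.08 in WT water and -2.49 ± 0.07 in DKO water (SD, n = 4 each), and the nicotine groups had -2.77 ± 0.14 for WT (SD, n = 4) and -2.31 ± 0.01 for DKO (SD, n = 3). The DKO ratios to this core lay above the WT ratios in all libraries, from -2.58 up against at most -2.61. Relative to Slc32a1 alone the ranges overlapped, with a DKO water minimum of -2.54 and a WT water maximum of -2.51. Lhx6 was at -2.93 ± 0.05 and -2.93 ± 0.09 in the water groups, so it changed in step with the 3 core genes there, and at -2.89 ± 0.10 and -2.75 ± 0.04 in the nicotine groups. Reln was also near level, at -2.04 ± 0.18 and -2.01 ± 0.15 in the water groups. Pvalb went from -0.09 ± 0.21 to 0.17 ± 0.26 in water and from -0.03 ± 0.24 to 0.23 ± 0.24 in nicotine, shifts about as large as 1 SD, and its library ranges overlapped.

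The wider set of inhibitory neuron genes, from lists chosen with earlier results of these data known, did not move as a block. The counts in the lists below stand beside those of all 12728 tested genes. In water 3252 of these (25.5%) were called higher and 1584 lower, and in nicotine 3133 (24.6%) higher and 1405 lower. In the list of 10 genes of Vip and Htr3a interneurons, 8 rose in each genotype comparison and none fell, with medians of 0.48 in water and 0.51 in nicotine. Vip, a neuropeptide of interneurons that inhibit other interneurons, went from 29.6 ± 2.67 to 64.2 ± 2.52 FPKM in water (SD, n = 4 each; log2 difference 1.10, SE 0.07, adjusted p = 6.67e-09 by limma) and differed by 1.07 in nicotine. Tac2, a tachykinin precursor, differed by 0.61 and 0.79, and Cnr1, the cannabinoid receptor of Cck basket cells, by 0.44 and 0.50. Cck itself, at 315 ± 18.0 and 309 ± 32.4 FPKM in the water groups, was not called. Igf1, also on this list and also made by activated microglia, differed by 0.68 and 0.88.

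Transcription factors of the forebrain GABAergic lineage went mostly one way. Of 17 listed, 15 were tested, and 9 rose and 1 fell in each comparison, with medians of 0.29 and 0.33. Npas1 went from 4.52 ± 0.391 to 8.14 ± 0.437 FPKM in water (SD, n = 4 each), a difference of 0.73 (SE 0.07, adjusted p = 5.24e-07 by limma), and differed by 0.66 in nicotine. Adarb2, an RNA-editing family member used as a marker of caudally derived interneurons, differed by 0.34 and 0.39, and Npas3 by 0.29 and 0.36. Nr2f1, which excitatory neurons also express, was the 1 that fell, by 0.19 and 0.17. Dlx2, the genomic neighbour of Dlx1, was at 2.94 ± 0.173 and 3.17 ± 0.416 FPKM in the water groups, a difference of 0.08 (SE 0.11, adjusted p = 0.616), and differed by 0.53 in nicotine (SE 0.12, adjusted p = 0.00211 by limma). Its mean was 2.20 FPKM in WT nicotine and 3.64 in DKO nicotine. The interaction of Dlx2 was 0.45 (SE 0.16, adjusted p = 0.657 by limma), so its genotype difference was not shown to differ between the drinking conditions.

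Genes for uptake and breakdown of GABA rose in water in 5 of 5 tested members and in nicotine in 2 of 5, with medians of 0.28 and 0.15. Abat, the GABA transaminase, went from 63.6 ± 1.35 to 77.8 ± 4.82 FPKM in water (SD, n = 4 each; difference 0.28, SE 0.04, adjusted p = 7.71e-05 by limma) and differed by 0.15 in nicotine. Slc6a11, a largely astrocytic GABA transporter, differed by 0.28 in water and by 0.18 in nicotine. All 8 astrocyte markers also rose in water and 7 of 8 in nicotine. Their summed level was 698 to 783 FPKM in WT water and 1216 to 1324 in DKO water, and its part in the values of these genes was not tested.

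Other genes of parvalbumin cells did not follow Pvalb as a group. Of 10, 3 rose and 2 fell in water, with a median of -0.00, and 1 fell and none rose in nicotine. The counts in water were near the shares over all tested genes, 25.5% higher and 1584 of 12728 lower. Cox6a2, a cytochrome oxidase subunit of fast-spiking cells, differed by 0.58 in water (SE 0.10, adjusted p = 0.000284 by limma), and Tac1, which striatal neurons also express, by 0.61. Lgi2 fell by 0.20 and 0.32, and the potassium channel gene Kcnc2 fell by 0.13 in water. Kcnc1 was level at 26.8 ± 1.12 and 27.3 ± 1.08 FPKM (SD, n = 4 each; difference 0.02, SE 0.04).

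Somatostatin cell genes went both ways, as did all tested genes (3252 called higher and 1584 lower in water). Of 8 tested, 3 rose and 2 fell in water and 3 rose and 3 fell in nicotine. Elfn1, a synaptic organiser, differed by 0.48 and 0.30, and Nos1, the neuronal nitric oxide synthase, by 0.43 and 0.41. The peptide gene Cort fell by 0.75 and 0.87, and Calb1, a calcium-binding protein that excitatory neurons of the upper layers also make, fell by 0.51 and 0.53. Sst itself, the defining peptide, went from 292 ± 17.7 to 361 ± 40.2 FPKM in water (SD, n = 4 each; 0.30, SE 0.09, adjusted p = 0.0114 by limma), and was not called in nicotine (0.10, SE 0.09).

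The list of neurogliaform and layer 1 genes, the class that Ndnf and Reln mark, had 4 rises and 2 falls in water and 3 rises and 2 falls in nicotine. Lamp5, which excitatory neurons also express, fell by 0.93 and 1.02, and Gabrd, a GABA receptor subunit outside synapses, fell by 0.26 and 0.27. Cplx3, a complexin, differed by 0.49 and 0.30. The other rises were Lsp1 (0.46 and 0.40), Cxcr4 (0.59 and 0.89) and, in water only, Id2 (0.16). Which cells gave the rises of this list was not tested. The Cajal-Retzius markers (Trp73, Lhx5, Lhx1 and Ebf3), of the other cortical cell type that makes reelin, summed to at most 0.575 FPKM in any library, and none passed the filter. Of 8 genes for interneuron signalling and inhibitory synapses, 4 fell and 1 rose in each comparison, the latter being Elfn1, also on the somatostatin list. Cbln4, a synaptic organiser, fell by 0.84 and 0.96, while Nlgn2, an adhesion protein of the postsynaptic side of inhibitory synapses, fell by 0.22 and 0.24.

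**Figure D5:**
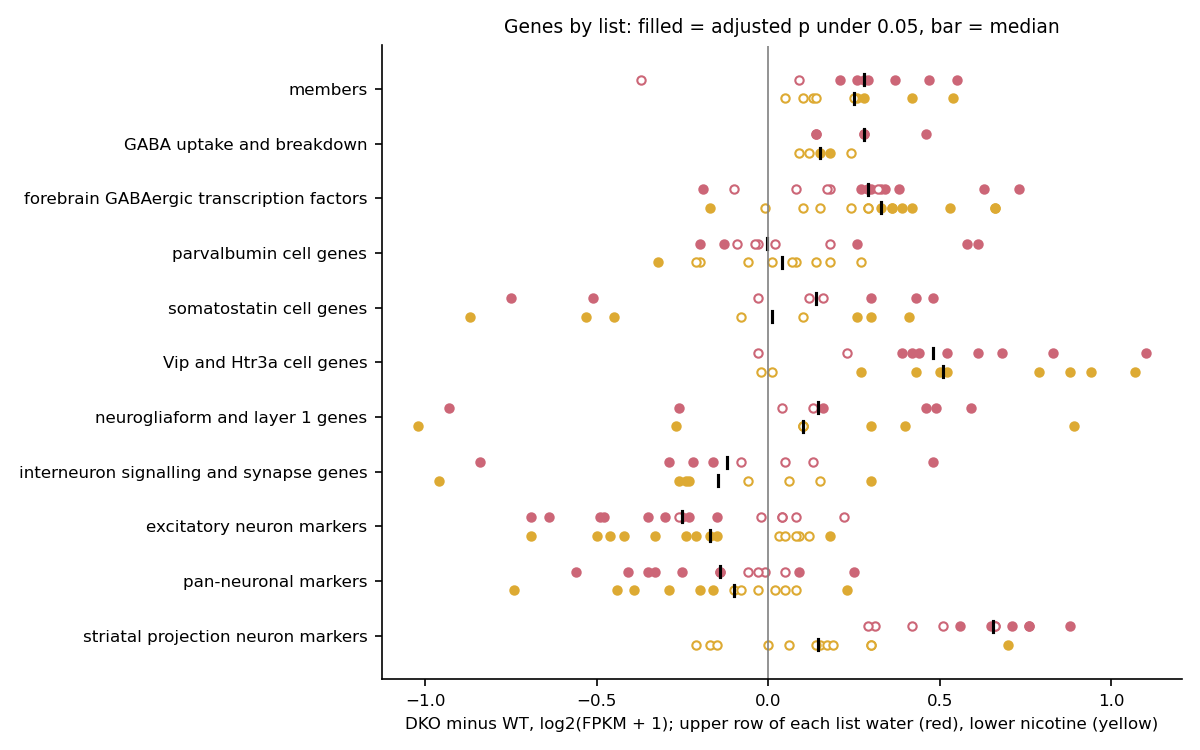
Differences of log2(FPKM + 1) between DKO and WT (horizontal axis) for the genes of each list, in water (upper, red) and nicotine (lower, yellow), with filled points for an adjusted p under 0.05 and a bar at the list's median. The row named members holds the 9 genes, with medians of 0.28 and 0.25, and the excitatory and pan-neuronal rows have medians below 0.

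Markers of excitatory and of all neurons did not share the direction of the 9 genes. Of 15 excitatory markers, 9 fell and none rose in water (median -0.25), and 9 fell and 1 rose in nicotine (median -0.17). Camk2a went from 725 ± 8.43 to 517 ± 33.2 FPKM in water (SD, n = 4 each), and Neurod6 fell by 0.69 in either comparison. Slc17a7, the vesicular glutamate transporter and counterpart of Slc32a1, was at 552 ± 19.7 and 569 ± 15.1 FPKM (SD, n = 4 each; 0.04, SE 0.03). Of 13 pan-neuronal markers, 7 fell and 2 rose in water, where Rbfox3 fell by 0.35 and Snap25 fell by 0.33. Microglial markers rose in 8 of 8 members in water, and their summed level was 120.2 to 134 FPKM in WT water against 327 to 376 in DKO water. Since FPKM is a share of all reads, each value depends on the others. When libraries were rescaled to the pan-neuronal markers, the median of all genes moved to 0.18 in water and 0.20 in nicotine. The 9 genes then had 7 calls in water and 6 in nicotine, all higher. Over all 12728 tested genes, 6989 were called higher in water and 7366 in nicotine. These made up 92.4% and 93.9% of all calls, so the direction under this scaling is not particular to the 9 genes.

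Of the 8524 genes with a mean of at least 5 FPKM, the 3 whose values went most closely with each of the 9 across the 15 libraries, with group means removed, were listed as a description. For Slc32a1 they were Penk (r = 0.91), Gng7 (0.91) and Drd2 (0.89), of which Penk and Drd2 are on the striatal list. For Gad2 they were Pdyn (0.96, also on the striatal list), Rcan3 (0.94) and Ankrd63 (0.93). For Gad1 they were Pcp4l1 (0.93), Nfkbib (0.92) and Spcs2 (0.89). For Reln they were Amz1 (0.95), Nos1 (0.93) and Synpr (0.88). For Lhx6 they were Ddrgk1 (0.94), Sst (0.90) and Cnp (0.90), and for Pvalb Bcas1 (0.95), Stac2 (0.91) and Slc7a6os (0.90). Dlx1 went with Anapc16 (0.94), Ddr1 (0.89) and Sumo3 (0.88). Calb2, whose spread lies mostly in the 2 WT libraries numbered 3, went with Pcbp3 (0.91), Gng4 (0.88) and Vps37c (0.86). Ndnf went with Ppp1r12b (0.89), Tiam1 (0.83) and Sdc3 (0.83). All these values were picked as the highest among 8524 genes over 15 libraries. Picked values can be high by chance, which was not tested.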

How the data were processed

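Libraries were made from total RNA with a stranded TruSeq mRNA kit, per the labels' protocols. The authors deposited FPKM values per gene in a table for each library. Per the submitters' processing notes the build was GRCm38 p6. The sources used here name no aligner, counter or strand setting, so reads of Gad1, Slc32a1, Reln and Dlx1 cannot be told apart from those of antisense genes that overlap them. All values were whole multiples of 1 read within 0.02 reads (100% of rows), which gave the totals of reads. Names of 27 genes turned into dates were restored by gene number. A targeted gene and some genes that the naming rule gives are not reported here.

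Groups came from the labels. limma 3.58.1 (R 4.3.3) was fitted with an intensity trend to log2(FPKM + 1) of the 12728 genes that reached 1 FPKM in 3 or more libraries, all 15 libraries in a single fit with a term per group, and adjusted over all genes in each comparison. Alternatives were other scalings, filters, a pseudocount of 0.1, no trend, only the groups compared, a replicate block, voom on recovered reads and leaving out each library. The striatal covariate, leaving out 2 WT libraries, and only libraries with Y-linked expression were chosen after seeing the data. The members and gene lists were chosen with earlier results of these data known. Named genes are the 9, the called genes with the smallest p of each described list (up to 4), and the 3 most similar genes. Dlx2, Sst, Cck, Kcnc1 and Slc17a7 were named after their values were seen, and some genes complete a count. On simulated reads for genotype in water (12728 genes), the fit recovered 67.2% at a fold of 1.25, 89.6% at 1.5 and 92.4% at 2. The simulation changed 67, 67 and 66 genes at these folds and left the rest unchanged. In the data 38.0% of tested genes were called in water. The cut-off after adjustment thus differed, and these rates need not hold for the data. Figures and tables used Python 3.11.15, pandas 2.3.3, numpy 2.4.6 and matplotlib 3.10.9.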

Additional observations from a re-analysis of the deposited data

Results flagged for a closer look

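In groups of 4 libraries, a gene's highest or lowest value was looked at again when its gap to the nearest of the others, divided by the range of the group, was above Dixon's 95% critical value. Chance alone gives about 1 such group in 20, and 3 of 27 groups met this. Calb2 in WT water replicate 3 was at 26.7 FPKM, where the other 3 libraries of the group lay between 7.98 and 9.33. Calb2 in WT nicotine replicate 3 was at 20.0 FPKM, where the others lay between 7.65 and 9.24. Reln in DKO water replicate 4 was at 14.5 FPKM, where the others lay between 11.7 and 12.1. This library also had the lowest Pvalb (45.8 FPKM) and the highest Ndnf (1.84 FPKM) of DKO water.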

How the results depend on the processing

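Of the 9 genes, 7 were called in water and 4 in nicotine, and every call under every alternative was in the higher direction. With the striatal score as a covariate, 3 were called in water, beside 2072 of all 12728 tested genes called higher. Leaving out each library gave 5 to 7 calls in water and 1 to 5 in nicotine. In nicotine only Dlx1 was called without DKO nicotine replicate 3, and 2 genes (Gad2 and Dlx1) without WT nicotine replicate 4. Calb2 in water ranged from -0.54 to 0.0014 when a library was left out, and turned from -0.37 to 0.0014 without WT water replicate 3, alone or with WT nicotine replicate 3. Slc32a1 in nicotine turned from 0.05 to -0.02 under median-of-ratios rescaling and ranged from -0.03 (without DKO nicotine replicate 3) to 0.12 when a library was left out. Pvalb in nicotine lost its call with no filter (0.42), and pan-neuronal rescaling added Gad1 (0.29) and Reln (0.40) there. Lhx6 in nicotine differed by 0.14 relative to the 3 core genes and by 0.25 relative to Slc32a1 alone. The cause of these changes was not tested.

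Replicate numbers did not pair the libraries: same-numbered pairs deviated with r of -0.214 to 0.165 and others with -0.188 to 0.229. With the number as a replicate block, 7 genes were called in water and 4 in nicotine, where Reln (0.27) took the place of Lhx6 (0.24).

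Over all genes, the 4836 calls in water (3252 higher, 1584 lower) became 4771 under median-of-ratios rescaling (2430 higher, 2341 lower), 7560 under pan-neuronal rescaling (6989 higher, 571 lower) and 3153 with the striatal covariate. The 4538 in nicotine (3133 higher, 1405 lower) became 4359 (2142 higher, 2217 lower) and 7841 (7366 higher, 475 lower) under these scalings. The 22 for nicotine in WT became 7 without the 2 WT libraries numbered 3. The 20 for nicotine in DKO became 13 with no trend, 4 with the striatal covariate, 88 by voom, 0 with only the groups compared, 0 with only libraries with Y-linked expression (1483 with an unadjusted p under 0.05), and 1 to 57 when a library was left out. The 2 for the interaction ranged from 1 to 6.

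Few libraries, and 3 in DKO nicotine, limit what a missing call can show.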

Other observations

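Pvalb and Reln went opposite ways within groups. The library with the lowest Pvalb had the highest Reln in 3 of the 4 groups (WT water, DKO water and DKO nicotine), and the library with the highest Pvalb had the lowest Reln in 3 of the 4 (WT water, WT nicotine and DKO nicotine). In DKO nicotine, replicate 1 had 64.6 FPKM of Pvalb and 9.91 of Reln, and replicate 2 had 44.4 and 12.8. This was noticed in the data and not tested.

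Among thalamic markers, 4 of 6 were tested. Prkcd and Plekhg1 differed between DKO and WT by 0.84 and 0.53 in water and by 0.69 and 0.38 in nicotine, and Ntng1 fell by 0.32 in water. The summed level of the list was 7.82 to 9.67 FPKM in WT libraries and 10.1 to 13.0 in DKO libraries. Its part in the values of the 9 genes was not tested.

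In DKO nicotine, replicate 2, the single library of its group without Y-linked expression, had the lowest Gad1, Gad2, Slc32a1, Pvalb, Calb2, Lhx6 and Dlx1 of the 3. It also had the lowest striatal marker sum, 206 FPKM against 289 and 293.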
